A study of Mus musculus with 38 samples.

Results

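The genes described here are 9 regulators of inositol lipid and diacylglycerol signalling: Inpp5d, Pik3ip1, Pik3cd, Pik3r1, Pik3r5, Rasgrp1, Rasgrp2, Dgka and Dgkz. They were taken by gene symbol from 19938 genes with a named probe set, and their levels in these same samples guided the choice, so their values are given as a description without p-values. All 9 had a probe set, and Dgkz had a further one. RNA came from 5 mouse CD8 T cell clones, each profiled dormant and after 14 h on plates coated with the anti-CD3 antibody 145-2c11 (0.5 ug/ml), which engages the T cell receptor complex. The labels mark sAg1 and sAg3 as IL13+ clones, 8uvmo-2 and 8uvmo-3 as IL13- (called Tc1 in the series' design), and CD8bm1 as an alloreactive CD8 clone. Each line is 1 clone grown in RPMI 1640 with 10% serum, no genetic change is labelled, and each phenotype rests on 1 or 2 clones. There were 38 arrays in 10 groups of 4, less 1 each in the dormant groups of sAg1 and sAg3. Whether arrays of a group came from separate cultures is not labelled, so errors and p-values cover the spread between arrays only, and that spread may be technical.

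When the T cell receptor is engaged, phosphoinositide 3-kinase (PI3K) phosphorylates the membrane lipid PIP2 to PIP3, which recruits kinases such as Akt and Tec. SHIP1, the product of Inpp5d, removes the 5-phosphate of PIP3. Phospholipase C cleaves PIP2 as well and releases inositol trisphosphate and diacylglycerol. Diacylglycerol brings the exchange factor RasGRP1 to membranes, where it loads Ras with GTP, and it activates protein kinase C. RasGRP2, a relative regulated mainly by calcium, loads Rap1. Diacylglycerol kinases, among them the products of Dgka and Dgkz, convert diacylglycerol to phosphatidic acid and so end its signal.

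Values are log2 probe set levels, so 1 unit is a 2-fold difference. Arrays of a group correlated at 0.9858 to 0.9981. Dormant arrays had medians of 6.58 to 6.70 and activated arrays of 7.01 to 7.09, and the median probe set lay 0.352 higher on activated arrays (0.51 for probe sets with a mean below 7, -0.04 for those at 9 or more). Activation differences are given relative to the array medians unless stated, with the difference in deposited values beside them where the sign is not the same. Centring on the medians enlarges decreases. Over the clones Rasgrp1 differed by -2.09 relative to the medians, -1.69 in deposited values and -1.64 under quantile normalization. In that order, Pik3cd differed by -1.09, -0.69 and -0.67 and Dgka by -1.40, -0.99 and -0.97. For Rasgrp2 (-2.05, -1.65 and -1.88) and Pik3ip1 (-1.82, -1.42 and -1.58) the quantile value lay between the others. Which scale is closer to the RNA amounts was not tested. No background was measured; levels below 7 are called dim, and where the lower side is dim a difference is a lower bound. Of 9 measured T cell markers, 7 or 8 were at 7 or more in every group, Cd8a at 11.22 to 12.83. Of 11 macrophage markers 1 or 2 were, including Cd68 in every group, while Csf1r, Adgre1 and the C1q genes were dim throughout, and the mean of this list ran from 5.50 to 6.72 per array. Lyz2 was at 9.26 in dormant sAg1 against 4.95 to 6.35 in the other groups, and Itgam at 9.99 in dormant 8uvmo-2 and 7.57 in dormant 8uvmo-3; their part in the results was not tested. B cell markers were dim except Ebf1 in 6 groups and averaged 5.10 to 6.50. Of 8 fibroblast and epithelial markers 2 to 4 were at 7 or more in every group, among them Col1a1 (7.37 to 8.03) and Krt8, and the mean of this list ran from 6.20 to 6.53 on dormant and from 6.75 to 7.13 on activated arrays; its part in the results was not tested. The 1 erythroid marker measured was dim throughout. Dormant 8uvmo-2 fell into pairs of arrays: replicates 1 and 3 (r = 0.9974) differed from replicates 2 and 4 (r = 0.9973), with r of 0.9858 to 0.9894 across the pairs. The cyclin gene Ccna2, chosen after its values were seen, read 12.10 and 12.17 in replicates 1 and 3 and 10.06 and 9.21 in replicates 2 and 4. Ccna2 also differed between the other dormant groups. It read 6.23 to 7.46 in sAg1, 8.50 to 9.81 in sAg3, 9.32 to 10.26 in 8uvmo-3 and 10.56 to 12.03 in CD8bm1. The part of cell cycling in the clone differences was not tested.

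**Figure D1:**
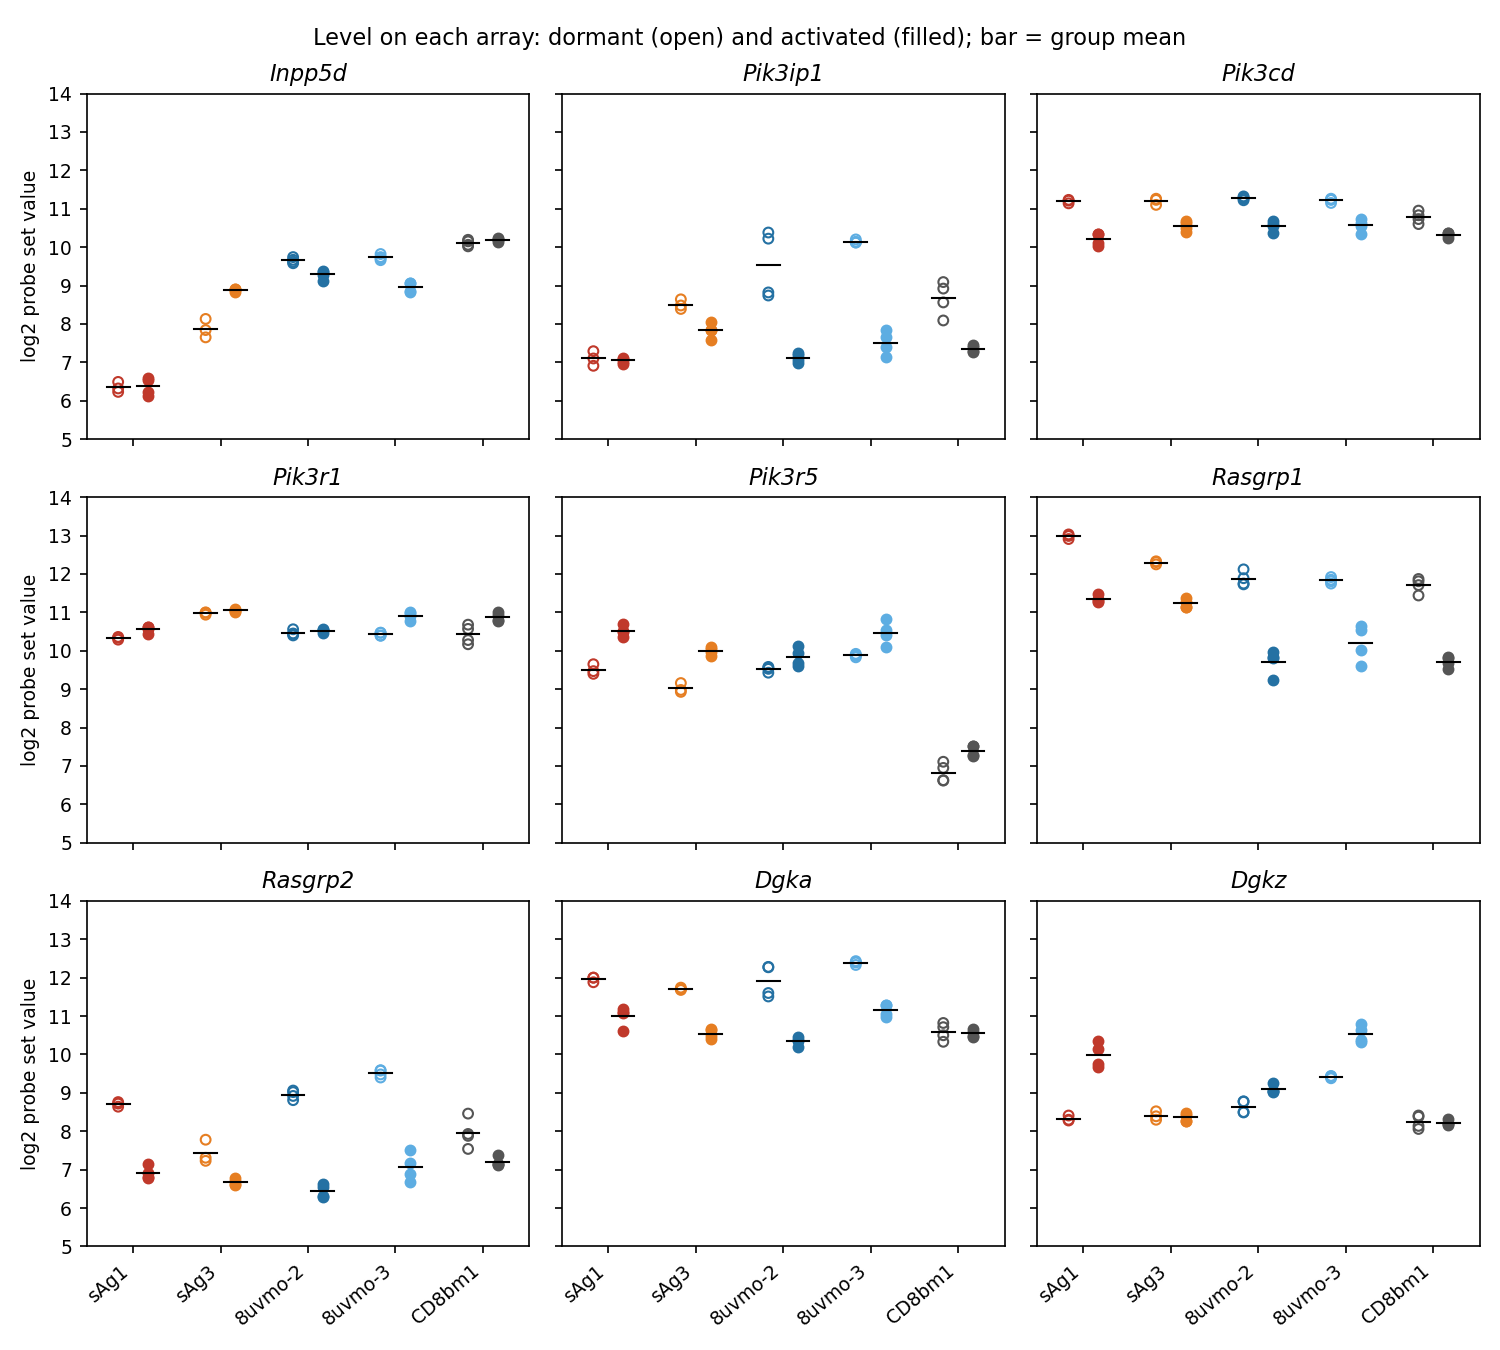
Log2 level of the 9 genes (y axis) on each of 38 arrays, by clone (x axis); open circles are dormant arrays, filled circles activated arrays, and black bars group means. Inpp5d lies between 6.13 and 6.58 in sAg1 and above 7.6 in every other clone, and Pik3r5 lies between 6.62 and 7.52 in CD8bm1 and above 8.9 in every other clone.

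Inpp5d, the gene of SHIP1, was low in sAg1 in both states and high in CD8bm1. The dormant sAg1 arrays read 6.49, 6.23 and 6.32 and the activated ones 6.55, 6.13, 6.24 and 6.58. All 7 sAg1 arrays were thus dim and lay below all 31 arrays of the other clones, a pattern that 0.337% of all tested probe sets showed. The sister IL13+ clone sAg3 read 8.13, 7.84 and 7.65 when dormant and 8.91, 8.90, 8.89 and 8.84 when activated. In RNA from whole cultures, a lower level in every cell and fewer cells with the transcript cannot be told apart.

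Inpp5d was higher in the clones without the IL13+ label. Dormant 8uvmo-2 arrays read 9.67, 9.58, 9.74 and 9.62 and dormant 8uvmo-3 arrays 9.82, 9.70, 9.74 and 9.66, with overlap between these clones. CD8bm1 read 10.19, 10.15, 10.06 and 10.02 when dormant and 10.21, 10.25, 10.19 and 10.14 when activated. All 8 CD8bm1 arrays lay above the 30 arrays of the other clones (1.11% of tested probe sets). The order in the dormant state was CD8bm1, 8uvmo-3, 8uvmo-2, sAg3 and sAg1, and each step but that from 8uvmo-3 to 8uvmo-2 separated the arrays. Within the IL13+ pair, sAg1 minus sAg3 was -1.53 ± 0.10 (log2 difference, SE) when dormant and -2.51 ± 0.09 when activated, both lower bounds in size.

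Activation moved Inpp5d in opposite directions in different clones. It was higher in activated sAg3 by 0.60 ± 0.10 relative to the array medians (1.01 ± 0.10 in deposited values). Activated 8uvmo-2 arrays read 9.38, 9.28, 9.13 and 9.36, a difference of -0.76 ± 0.09. Activated 8uvmo-3 arrays read 9.07, 8.85, 9.06 and 8.84, a difference of -1.16 ± 0.09. In each of these 3 clones the dormant and activated arrays did not overlap, and activated sAg3 and 8uvmo-3 arrays overlapped each other. States overlapped in sAg1 and CD8bm1, with differences of -0.38 ± 0.10 and -0.31 ± 0.09 relative to the medians and 0.03 ± 0.10 and 0.09 ± 0.09 in deposited values.

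Pik3r5 encodes p101, a regulatory subunit that couples the PI3K gamma catalytic subunit to G protein beta-gamma dimers. It was close to 7 or dim in CD8bm1 and well expressed in the other 4 clones. Dormant CD8bm1 arrays read 6.95, 6.62, 7.11 and 6.63 and activated ones 7.51, 7.25, 7.29 and 7.52. All 8 lay below the 30 arrays of the other clones (1.02% of tested probe sets). Dormant levels elsewhere were 9.40, 9.65 and 9.47 in sAg1, 9.16, 8.98 and 8.93 in sAg3, 9.43, 9.56, 9.53 and 9.58 in 8uvmo-2, and 9.87, 9.89, 9.83 and 9.92 in 8uvmo-3. CD8bm1 minus the mean of the other clones was -2.66 ± 0.10 when dormant, at least 6.30-fold lower, and -2.81 ± 0.09 when activated.

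Inpp5d and Pik3r5 are the members whose levels in 1 clone stood clear of every other array, so their promoter windows are shown, from 250 bases before to 50 after the RefSeq start (GRCm38.p6, 300 bases, 5′ to 3′ on the gene's strand). Inpp5d lies at chr1:87620062-87620361 on the plus strand and Pik3r5 at chr11:68431875-68432174 on the plus strand. Capitals mark matches to motifs of factors known in T cells, searched on both strands: forkhead GTAAACA, ETS CCGGAA, RUNX TGTGGT, EGR GCGTGGG, AP-1 TGANTCA and KLF CCACCC.
Inpp5d: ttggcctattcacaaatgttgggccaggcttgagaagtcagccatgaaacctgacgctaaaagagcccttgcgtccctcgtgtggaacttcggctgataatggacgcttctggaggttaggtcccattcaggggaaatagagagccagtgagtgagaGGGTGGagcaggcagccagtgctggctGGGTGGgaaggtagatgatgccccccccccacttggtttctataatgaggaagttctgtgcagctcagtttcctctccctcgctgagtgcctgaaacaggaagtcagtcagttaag
Pik3r5: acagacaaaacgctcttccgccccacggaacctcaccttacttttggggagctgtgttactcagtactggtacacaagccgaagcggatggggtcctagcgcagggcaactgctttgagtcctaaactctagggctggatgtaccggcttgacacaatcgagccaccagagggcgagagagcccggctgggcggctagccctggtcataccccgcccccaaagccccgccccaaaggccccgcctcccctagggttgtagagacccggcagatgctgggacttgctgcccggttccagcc
The Inpp5d window holds 2 KLF matches, both on the opposite strand, with their first bases at positions -93 and -66, counted from the base before the start as -1. The Pik3r5 window holds none of the 6 motifs. Of all 32851 windows of this length, 31.5% held the KLF letters, 16.8% RUNX, 14.9% ETS, 7.81% AP-1, 5.04% EGR and 3.65% forkhead. The 9 genes have 17 windows, of which 8, from 6 genes, held KLF, 1 held ETS and 0 held any of the other 4; no matches overlapped. A match describes letters, and its absence says only that they are not in this window.

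The genes next to Inpp5d and Pik3r5 on their chromosomes were also measured, a comparison chosen after the values of both genes were seen. Around Inpp5d, the nearest 5 genes on each side differed between sAg1 and the mean of the other clones by -0.19 (Gigyf2) to 0.77 (Usp40) in either state. Inpp5d itself differed by -2.99 ± 0.08 when dormant and -2.96 ± 0.07 when activated, both lower bounds in size. Among the 10 neighbours of Pik3r5, Pik3r6, which encodes another PI3K gamma regulatory subunit, p84, was at 6.34 in dormant and 6.78 in activated CD8bm1, against 6.30 to 8.27 and 6.79 to 9.20 in the other clones. Its difference was -0.86 when dormant and -0.97 when activated. The other 9 neighbours of Pik3r5 differed by -0.12 to 0.24.

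**Figure D2:**
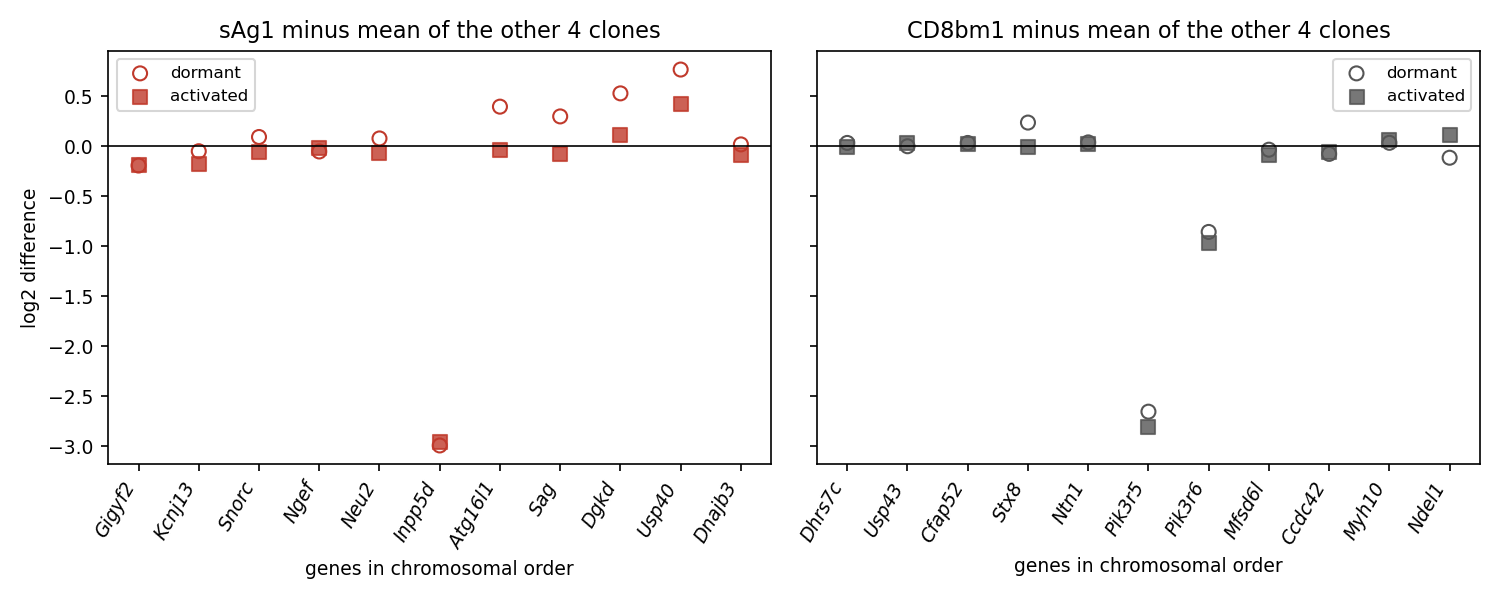
Log2 difference between 1 clone and the mean of the other 4 (y axis) for Inpp5d in sAg1 (left) and Pik3r5 in CD8bm1 (right) with the nearest 5 measured genes on each side in chromosomal order (x axis); circles are dormant, squares activated. Inpp5d sits at -2.99 and -2.96 and Pik3r5 at -2.66 and -2.81, while their neighbours lie between -0.97 and 0.77.

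The other PI3K subunits among the 9 genes varied less between clones. Pik3cd encodes p110 delta, the catalytic subunit that dominates in lymphocytes. It read 11.10 to 11.32 on all dormant arrays of the IL13+ and IL13- clones and 10.60 to 10.95 on those of CD8bm1. After activation it read 10.03 to 10.74 over all 20 arrays. Activated arrays lay below dormant arrays within each of the 5 clones, as they did for Rasgrp1 and Rasgrp2 and for 5.24% of tested probe sets. The difference was -1.09 ± 0.04 (-0.69 ± 0.04 in deposited values), from -0.86 ± 0.08 in CD8bm1 to -1.39 ± 0.09 in sAg1.

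Pik3r1 encodes p85 alpha, the regulatory subunit that stabilises p110 and holds it inactive until phosphotyrosine is bound. Dormant sAg3 read 10.94 to 11, above the 10.17 to 10.68 of the other dormant groups. Activated levels ran from 10.44 in sAg1 to 11.10 in sAg3. Its activation difference was 0.26 ± 0.03 in deposited values and 0.28 under quantile normalization. Relative to the array medians it was -0.14 ± 0.03, so the sign depends on the scaling and no direction is given. Pik3r5, in contrast to Pik3cd, read higher on activated than on dormant arrays within each clone, as did 38.3% of tested probe sets. Its difference relative to the medians was 0.29 ± 0.05 on average, with 0.60 ± 0.13 in sAg1 and 0.56 ± 0.13 in sAg3. It was 0.21 ± 0.12 in 8uvmo-3, 0.16 ± 0.12 in CD8bm1 and -0.08 ± 0.12 in 8uvmo-2, where deposited values differed by 0.31 ± 0.12.

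Pik3ip1 encodes a transmembrane protein that binds p110 and restrains PI3K. In the dormant state it was lowest in sAg1, at 7.29, 6.91 and 7.10. Dormant sAg3 read 8.48, 8.64 and 8.39, and CD8bm1 8.92, 8.56, 9.09 and 8.09. Dormant 8uvmo-3 read 10.12, 10.12, 10.14 and 10.20, the level of 8uvmo-2 replicates 2 and 4 (10.38 and 10.22), whereas 8uvmo-2 replicates 1 and 3 read 8.82 and 8.74. After activation the clones came together, with group means from 7.05 in sAg1 to 7.83 in sAg3, so that the span between clones was 3.05 when dormant and 0.79 when activated.

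The activation difference of Pik3ip1 followed the order of its dormant level, which enters that difference. It was -3.02 ± 0.22 in 8uvmo-3 and -2.82 ± 0.22 in 8uvmo-2. The latter was -3.18 ± 0.17 in deposited values without dormant replicates 1 and 3, against -2.42 ± 0.23 with them. CD8bm1 differed by -1.72 ± 0.22 and sAg3 by -1.08 ± 0.24, with no overlap between states in these 4 clones. In sAg1 the arrays overlapped, 6.96, 7.12, 7.09 and 7.02 being the activated values, and the difference was -0.46 ± 0.24 relative to the medians and -0.05 ± 0.25 in deposited values.

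Rasgrp1, the main Ras exchange factor downstream of the T cell receptor, was higher in the IL13+ clones in both states. Dormant sAg1 read 13.03, 12.91 and 12.99 and dormant sAg3 12.33, 12.31 and 12.25. Dormant 8uvmo-2 read 12.12, 11.73, 11.89 and 11.75, dormant 8uvmo-3 11.92, 11.85, 11.81 and 11.75, and dormant CD8bm1 11.87, 11.81, 11.44 and 11.71. Each IL13+ clone thus lay above the other 3, which overlapped. After activation sAg1 read 11.29, 11.35, 11.49 and 11.27 and sAg3 11.37, 11.15, 11.28 and 11.14. The other clones lay apart from them, with 9.24, 9.84, 9.97 and 9.82 in 8uvmo-2, 10.64, 10.03, 10.55 and 9.61 in 8uvmo-3, and 9.52, 9.67, 9.85 and 9.80 in CD8bm1.

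Rasgrp1 was lower after activation on average over the clones. The log2 difference was -2.09 ± 0.07 relative to the medians (4.27-fold) and -1.69 ± 0.07 in deposited values (3.23-fold). Relative to the medians it was -1.47 ± 0.16 in sAg3, -2.01 ± 0.15 in 8uvmo-3 and -2.03 ± 0.16 in sAg1. In CD8bm1 it was -2.40 ± 0.15 and in 8uvmo-2 -2.55 ± 0.15, the smallest difference being that of sAg3.

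Rasgrp2 encodes CalDAG-GEFI, an exchange factor for Rap1, the small GTPase that activates integrins. Dormant 8uvmo-3 read 9.59, 9.58, 9.48 and 9.40, 8uvmo-2 8.81, 9.02, 8.92 and 9.06, and sAg1 8.64, 8.72 and 8.76. These 3 clones did not overlap one another and lay above CD8bm1 (7.88, 7.93, 7.54 and 8.46) and sAg3 (7.78, 7.31 and 7.23), which overlapped. After activation all groups were close to 7 or dim, between 6.30 in 8uvmo-2 and 7.52 in 8uvmo-3, and neighbours in the order overlapped. The average difference was -2.05 ± 0.07, a lower bound in size. It ran from -1.16 ± 0.15 in CD8bm1 and -1.17 ± 0.16 in sAg3 to -2.90 ± 0.15 in 8uvmo-2.

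Promoter windows are shown for Rasgrp1 and Rasgrp2, whose activated arrays lay below the dormant ones in each clone, and for Pik3ip1, which did so in 4 clones. Pik3cd also did so in each clone and Dgka in 4, but their windows, of 3 and 4 annotated starts, are not shown. Pik3ip1 lies at chr11:3330481-3330780 on the plus strand, Rasgrp1 at chr2:117342828-117343127 on the minus strand, and the second annotated start of Rasgrp2 at chr19:6401455-6401754 on the plus strand (GRCm38.p6). Capitals mark the same motifs as above.
Pik3ip1: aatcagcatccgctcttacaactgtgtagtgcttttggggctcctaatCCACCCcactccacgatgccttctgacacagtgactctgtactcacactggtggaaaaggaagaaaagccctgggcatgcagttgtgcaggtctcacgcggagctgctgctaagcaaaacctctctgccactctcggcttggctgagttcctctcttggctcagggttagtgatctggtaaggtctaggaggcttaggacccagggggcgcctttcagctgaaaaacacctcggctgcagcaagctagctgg
Rasgrp1: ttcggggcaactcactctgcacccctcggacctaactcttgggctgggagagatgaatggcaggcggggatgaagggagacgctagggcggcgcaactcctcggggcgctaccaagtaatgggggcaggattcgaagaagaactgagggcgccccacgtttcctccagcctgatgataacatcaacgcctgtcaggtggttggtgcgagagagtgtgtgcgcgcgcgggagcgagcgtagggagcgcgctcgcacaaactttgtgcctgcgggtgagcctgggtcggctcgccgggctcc
Rasgrp2: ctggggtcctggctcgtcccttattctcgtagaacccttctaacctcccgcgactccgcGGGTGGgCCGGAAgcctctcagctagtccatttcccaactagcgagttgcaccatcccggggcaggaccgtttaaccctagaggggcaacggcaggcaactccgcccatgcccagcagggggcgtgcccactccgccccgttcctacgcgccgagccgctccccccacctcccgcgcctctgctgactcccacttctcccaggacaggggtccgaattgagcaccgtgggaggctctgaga
Pik3ip1 holds a KLF match at position -202, and the Rasgrp2 window holds a KLF match at -191 and an ETS match at -184. The window of the first Rasgrp2 start, not shown, holds a KLF match at -7. The Rasgrp1 window holds none of the 6 motifs, so the 3 windows shown have no searched motif in common. No window of the 9 genes held the forkhead letters.

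Dgka and Dgkz, the diacylglycerol kinases alpha and zeta, went different ways on activation in sAg1 and 8uvmo-3, but not in every clone. Dormant Dgka read 12.40, 12.43, 12.33 and 12.40 in 8uvmo-3, 12.00, 12.00 and 11.88 in sAg1, and 11.68, 11.70 and 11.74 in sAg3. Dormant 8uvmo-2 again split, with 11.60 and 11.51 in replicates 1 and 3 and 12.27 and 12.28 in replicates 2 and 4. CD8bm1 was lower than these, at 10.71, 10.50, 10.82 and 10.33. After activation Dgka read 10.19 to 11.29 over all 20 arrays.

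Dgka was lower in the 4 clones other than CD8bm1, without overlap, with differences of -1.97 ± 0.12 in 8uvmo-2, -1.63 ± 0.12 in 8uvmo-3, -1.58 ± 0.13 in sAg3 and -1.37 ± 0.13 in sAg1. In CD8bm1 activated arrays read 10.67, 10.46, 10.49 and 10.59, among the dormant values, and the difference was -0.45 ± 0.12 relative to the medians and -0.04 ± 0.13 in deposited values. The clone with the lowest dormant Dgka was thus the one in which its states overlapped, as sAg1 was for Pik3ip1.

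Dgkz differed between clones more after activation than before, the span of clone means being 2.31 and 1.17. Activated 8uvmo-3 read 10.80, 10.37, 10.63 and 10.33 against 9.44, 9.43, 9.41 and 9.38 when dormant, and activated sAg1 read 9.75, 9.68, 10.15 and 10.36 against 8.28, 8.30 and 8.41. The rise relative to the medians was 1.25 ± 0.12 in sAg1 and 0.73 ± 0.11 in 8uvmo-3. In sAg3 activated arrays read 8.42, 8.28, 8.28 and 8.47 against 8.39, 8.52 and 8.30, and in CD8bm1 8.21, 8.16, 8.32 and 8.19 against 8.06, 8.41, 8.38 and 8.14. States overlapped in both, and their differences were -0.45 ± 0.12 and -0.43 ± 0.11 relative to the medians and -0.04 ± 0.12 and -0.03 ± 0.11 in deposited values. In 8uvmo-2 it was 0.06 ± 0.11 (0.46 ± 0.11 in deposited values).

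A further, dimmer probe set of Dgkz did not show these clone differences. It read 6.90 to 7.35 on dormant and 7.40 to 7.84 on activated arrays, and differed between the activated IL13+ and IL13- clones by 0.05 ± 0.05, against -0.64 ± 0.08 for the brighter probe set. The direction of Dgkz between these clones therefore holds for 1 of its 2 probe sets.

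**Figure D3:**
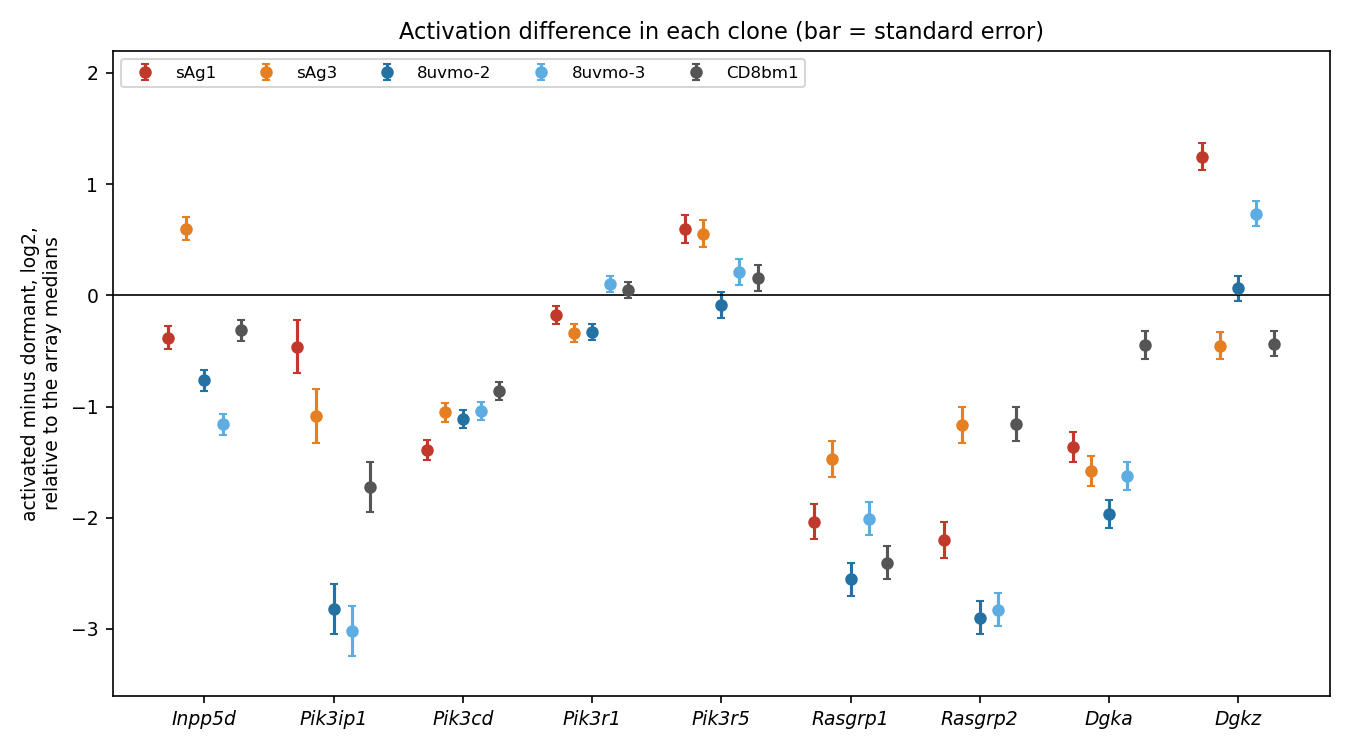
Activated minus dormant level relative to the array medians (y axis, log2) for the 9 genes (x axis) in each clone, with standard errors as bars. Rasgrp1, Rasgrp2 and Pik3cd are below 0 in all 5 clones, Pik3ip1 lies at -0.46 in sAg1 and between -3.02 and -1.08 in the other clones, and Inpp5d is above 0 in sAg3 and below 0 in the other 4.

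Within single clones, 4 of the 9 genes were lower and 3 higher when activated without overlap in sAg1 (against 18.6% and 61.2% of tested probe sets). In sAg3, 5 were lower and 2 higher (15.7% and 58.0%), and in 8uvmo-2, 6 and 2 (14.5% and 56.6%). In 8uvmo-3, 6 were lower and 3 higher (18.6% and 59.3%), and in CD8bm1, 4 and 2 (14.0% and 55.1%). These counts are on deposited values, where most probe sets lay higher after activation.

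By the call rule used for the wider pathway (Benjamini-Hochberg adjusted p under 0.05 over 23410 probe sets, a log2 difference of at least 1 and the same direction in all clones), 3 of the 9 genes were lower and 0 higher after activation, and 5 and 0 relative to the medians. Of all tested probe sets 1.64% were lower and 4.56% higher, and 5.56% and 1.06% relative to the medians. The genes were chosen on these values, so nothing is read from these shares.

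Between the phenotypes, Inpp5d, Pik3ip1 and Rasgrp2 were lower in the dormant IL13+ clones than in the IL13- clones, and Rasgrp1 was higher. The difference (IL13+ minus IL13-) was -2.58 ± 0.07 for Inpp5d, a lower bound in size through the dim sAg1, with sAg3 between sAg1 and the IL13- clones. For Pik3ip1 it was -2.04 ± 0.18, and -2.42 ± 0.12 without dormant 8uvmo-2 replicates 1 and 3. For Rasgrp2 it was -1.16 ± 0.11, resting mostly on sAg3, since sAg1 lay 1.27 ± 0.17 above sAg3. Rasgrp1 differed by 0.78 ± 0.11, Dgkz by -0.66 ± 0.09, Pik3r5 by -0.44 ± 0.09, Dgka by -0.32 ± 0.10, Pik3r1 by 0.21 ± 0.06 and Pik3cd by -0.05 ± 0.06. The call rule took 3 of the 9 as lower and 0 as higher, against 2.33% and 1.02% of all tested probe sets.

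After activation the differences of Pik3ip1 and Rasgrp2 between the phenotypes were small, while those of Inpp5d and Rasgrp1 remained. Inpp5d differed by -1.49 ± 0.06, again a lower bound in size, with activated sAg3 overlapping activated 8uvmo-3. Rasgrp1 differed by 1.33 ± 0.10, with all 8 IL13+ arrays above all arrays of the IL13- clones. Pik3ip1 differed by 0.13 ± 0.16, Rasgrp2 by 0.04 ± 0.10, Dgka by 0.02 ± 0.09, Pik3r5 by 0.09 ± 0.08, Pik3r1 by 0.08 ± 0.05 and Pik3cd by -0.18 ± 0.06. Rasgrp2 was dim on both sides (6.80 and 6.76), where a difference may not be seen. Dgkz, at -0.64 ± 0.08, hid a gap within each pair, sAg1 minus sAg3 being 1.62 ± 0.11 and 8uvmo-2 minus 8uvmo-3 -1.44 ± 0.11. By the call rule 1 member was higher and 1 lower, against 0.666% and 1.08% of all tested probe sets.

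The activation difference itself was compared between the phenotypes (IL13+ minus IL13-). Relative to the medians it was 2.15 ± 0.23 for Pik3ip1, 1.18 ± 0.16 for Rasgrp2 and 1.07 ± 0.10 for Inpp5d, each a smaller drop or a rise on average in the IL13+ clones. The dormant levels enter these values. Activated Rasgrp2 was dim in both phenotypes on average (6.80 and 6.76). In sAg1, Inpp5d was dim in both states (6.35 and 6.375), and dormant Pik3ip1 was close to 7 (7.10). A larger drop may not be seen at such levels. Under quantile normalization the value for Inpp5d was 0.80, below the minimum of 1. For Rasgrp2 the activation difference was -2.20 ± 0.16 in sAg1 and -1.17 ± 0.16 in sAg3, against -2.90 ± 0.15 in 8uvmo-2 and -2.83 ± 0.15 in 8uvmo-3. The other members ran from -0.15 ± 0.09 for Pik3cd to 0.53 ± 0.15 for Rasgrp1. In deposited values these 3 of 9 met the call rule as higher and 0 as lower, against 1.39% and 0.555% of all tested probe sets.

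Against the alloreactive clone CD8bm1, the IL13+ clones had less Inpp5d and more Pik3r5 and Rasgrp1. The comparisons share the IL13+ arrays with those above. Inpp5d differed by -2.995 ± 0.08 when dormant and -2.57 ± 0.08 when activated, both lower bounds in size through sAg1. Pik3r5 was higher by at least 2.44 ± 0.11 and by 2.86 ± 0.10, and Rasgrp1 by 0.93 ± 0.13 and 1.58 ± 0.13. Dgka was higher by 1.24 ± 0.12 in the dormant state and differed by 0.22 ± 0.11 after activation. Dgkz differed by 0.12 ± 0.10 when dormant and 0.95 ± 0.10 when activated, the latter carried by sAg1. In each state 2 of 9 genes met the call rule as higher and 1 as lower, against 3.14% and 4.12% of all tested probe sets when dormant and 2.02% and 1.65% when activated.

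**Figure D4:**
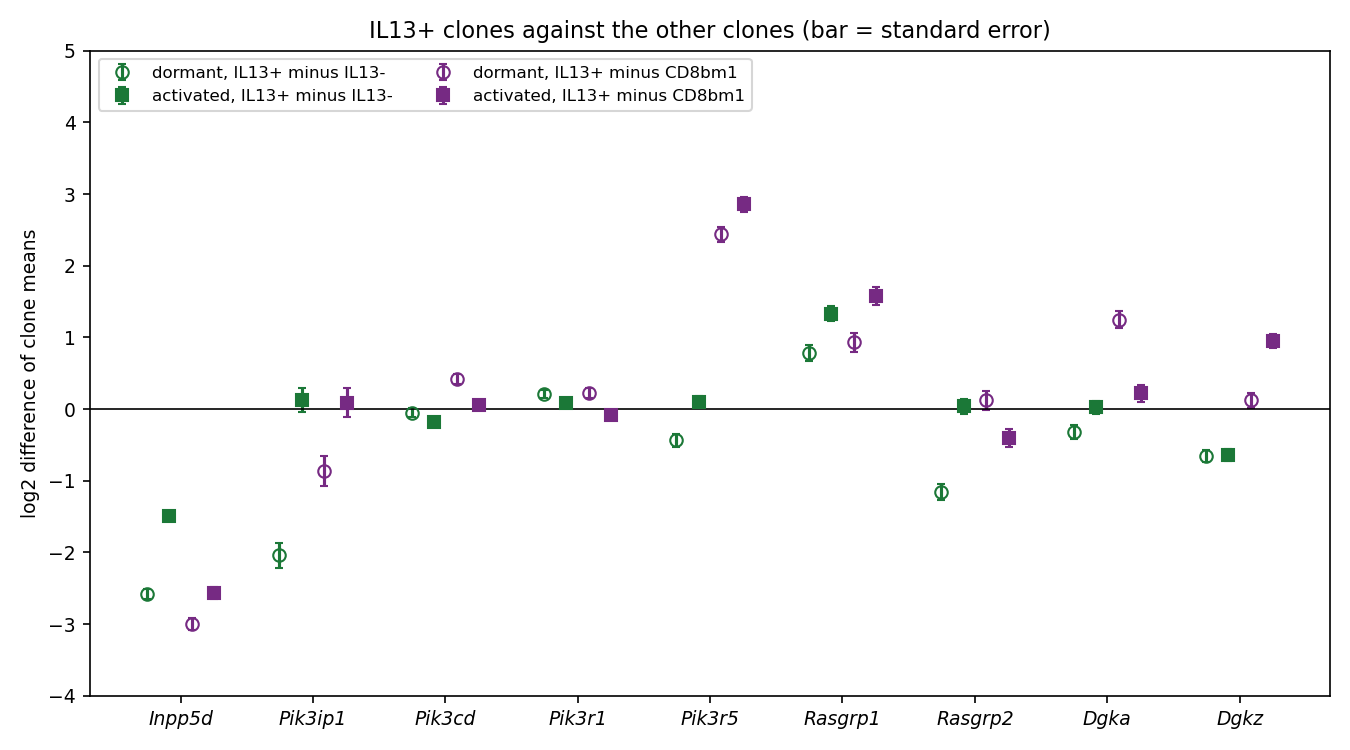
Log2 difference of clone means (y axis) for the 9 genes (x axis), IL13+ clones minus IL13- clones in green and minus CD8bm1 in purple; open circles are dormant, filled squares activated, and bars standard errors. Inpp5d is below 0 in all 4 comparisons (-2.995 to -1.49), Rasgrp1 above 0 in all 4 (0.78 to 1.58), and Pik3r5 above 2 against CD8bm1 alone.

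The wider pathway was described with 118 measured genes of 10 groups, none of them among the 9, each tested with limma over all 23410 probe sets. The list was drawn up with earlier results of these data known, so its counts and p-values serve as a description. After activation 2 were higher and 5 lower in deposited values (4.56% and 1.64% of all tested probe sets were), and 1 and 14 relative to the medians (1.06% and 5.56%). The median difference of the 118 genes was 0.05 in deposited values, against 0.35 over all tested probe sets, and -0.36 against -0.05 relative to the medians. The probe sets of the 118 genes had a median signal of 8.64, against 6.90 over all tested, and the upward shift was found among probe sets of low signal.

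An adaptor, a regulatory subunit of PI3K and kinases of the C and D families made up 4 of the 5 decreases. Gab3, an adaptor that binds PI3K, fell by 2.59 ± 0.06 relative to the medians (adjusted p = 1.39e-26, limma on deposited values). Prkcq, the protein kinase C theta of the T cell synapse, fell by 1.87 ± 0.07 (adjusted p = 2.57e-20, limma), and Prkd2, a protein kinase D, by 1.51 ± 0.07 (adjusted p = 2.21e-17, limma). Pik3r3, the p55 gamma regulatory subunit, fell by 1.82 ± 0.09, a lower bound (adjusted p = 6.73e-17, limma). These p-values belong to the deposited differences, -2.19 for Gab3, -1.47 for Prkcq, -1.11 for Prkd2 and -1.42 for Pik3r3. The fifth, the Ras GTPase activating protein gene Rasa3, fell by 1.43 ± 0.08; its deposited difference of -1.03 missed the minimum without dormant CD8bm1 replicate 1 or activated 8uvmo-3 replicate 4.

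Plcl1, a phospholipase C-like protein without catalytic activity, rose by at least 1.15 ± 0.07 relative to the medians. In deposited values it rose by 1.55 ± 0.07 (adjusted p = 5.15e-21, limma). Its dormant means were 5.82 to 8.36 and its activated means 7.70 to 9.20. Rasgrp3, a relative of Rasgrp1, rose by 1.15 ± 0.06 in deposited values but was dim in every group (3.80 to 6.09), and its 0.75 ± 0.06 relative to the medians was under the minimum. In deposited values none of the 7 PI3K catalytic subunit genes, 22 genes listed with the inositol lipid phosphatases or 12 phosphoinositide kinases met the rule. Neither did any of the 12 inositol phosphate genes, 9 diacylglycerol kinase and lipid phosphatase genes or 16 PIP3 effectors. Relative to the medians, 1, 1, 2, 1, 0 and 1 of these 6 lists were lower, in that order. The inositol lipid phosphatase list includes the adaptor gene Dok2.

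**Figure D5:**
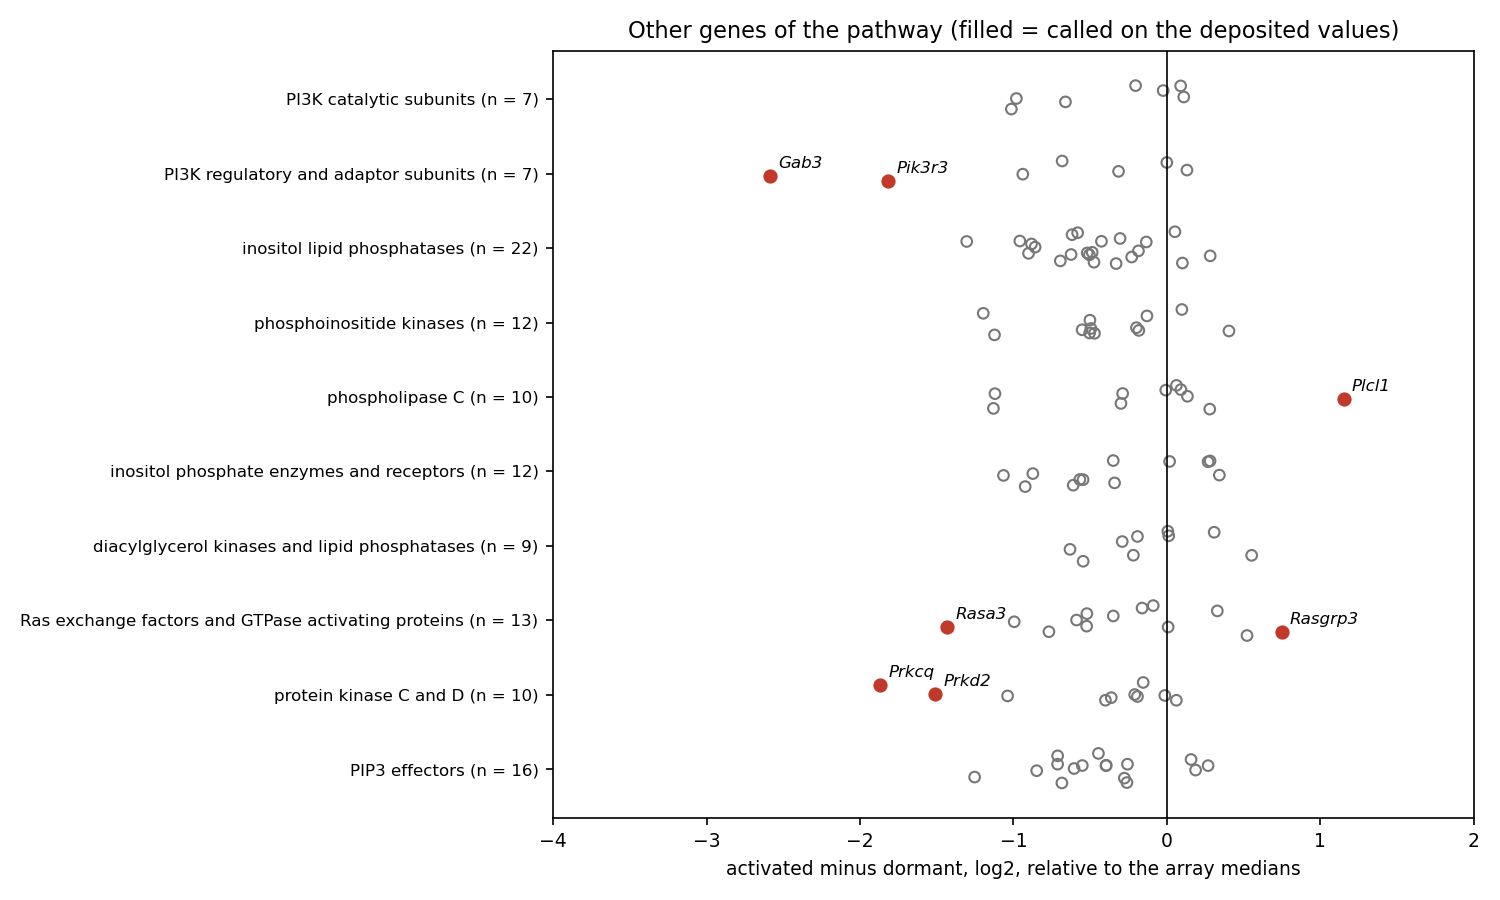
Activated minus dormant level relative to the array medians (x axis, log2) of 118 further genes of the pathway, 1 point each, in 10 groups (y axis; vertical scatter within a group has no meaning). Filled points are the 7 genes called on the deposited values, from Gab3 at -2.59 to Plcl1 at 1.15.

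Of the pathway genes in dormant IL13+ clones, 5 were above and 5 below the IL13- clones, where 1.02% and 2.33% of all tested probe sets were (median -0.06, against 0.03 over all tested probe sets). Plcl1 was higher by at least 1.75 ± 0.11 (adjusted p = 2.16e-15, limma), and Tec, a PIP3-binding tyrosine kinase, by 1.44 ± 0.07 (adjusted p = 6.32e-19, limma). Inpp5f, an inositol lipid phosphatase, was higher by at least 1.32 ± 0.08 and Prkch, protein kinase C eta, by 1.26 ± 0.11. Higher levels were not particular to IL13+ clones: dormant CD8bm1 lay above both of them for Plcl1 (8.36), Tec (9.61) and Inpp5f (8.48). For Prkch (10.61) CD8bm1 lay below both. The Prkch difference lay mostly with 8uvmo-2 (9.28), the arrays of 8uvmo-3 (10.86 to 11.14) overlapping those of sAg3 (11.11 to 11.35). Phlpp1, a phosphatase that dephosphorylates Akt, differed by -2.28 ± 0.09, a lower bound in size (adjusted p = 3.31e-21, limma). Its means were 6.11 and 6.09 in the IL13+ clones, 7.91 and 8.85 in the IL13- clones and 4.51 in CD8bm1. Prkcq differed by -1.29 ± 0.11, a call lost without dormant 8uvmo-2 replicates 1 and 3. Inpp4a, a 4-phosphatase of inositol lipids, differed by -1.23 ± 0.09. Itpk1, an inositol phosphate kinase, differed by -1.03 ± 0.09, a call lost without dormant sAg3 replicate 3 and under quantile normalization. Dormant CD8bm1 was nearer the IL13+ clones for Prkcq (7.68) and Inpp4a (7.37), and nearer the IL13- clones for Itpk1 (9.955).

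In activated cells, 3 pathway genes were above and 2 below the IL13- clones, where 0.666% and 1.08% of all tested probe sets were (median -0.03, against 0.02). Tec (1.47 ± 0.06, adjusted p = 4.95e-20, limma), Plcl1 (1.27 ± 0.10) and Phlpp1 (-2.09 ± 0.08, adjusted p = 6.08e-21, limma) kept the directions of the dormant state. Activated CD8bm1 lay nearer the IL13+ than the IL13- clones for Tec (9.74) and Plcl1 (8.94), and below both for Phlpp1 (5.17). For Phlpp1 the IL13+ mean was dim (6.87), so its difference is a lower bound in size. Plcb1, a phospholipase C beta, was higher by at least 1.21 ± 0.06 through sAg3 (8.09), sAg1 being at 6.05. Plpp2, a lipid phosphate phosphatase, differed by -1.08 ± 0.11, although sAg1 (8.36) lay close to the IL13- clones (8.64 and 8.56) and sAg3 (6.69) did not. Plcb1 (at least 1.17 ± 0.06) and Plpp2 (-1.01 ± 0.11) were also called in the dormant state. The dormant Plpp2 call was lost on leaving out any of several single arrays, dormant sAg1 replicate 1 among them. Relative to the medians, dormant Plpp2 was under the minimum (-0.99 ± 0.11). None of the 118 met the rule for a difference in activation between the phenotypes (1.39% of all tested probe sets did as higher and 0.555% as lower), while 59 had an unadjusted p under 0.05 and 46 an adjusted one (limma). Without dormant 8uvmo-2 replicates 1 and 3, Prkch (-1.03 ± 0.16) and the transcription factor gene Foxo1 (1.00 ± 0.12) met it in deposited values.

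Against CD8bm1, 12 pathway genes were raised and 7 reduced in dormant IL13+ cells (median 0.05, against 0.01), and 8 and 4 in the activated ones (median 0.00, against 0.00). Of all tested probe sets 3.14% and 4.12% were when dormant and 2.02% and 1.65% when activated. Plcg2, phospholipase C gamma 2, was higher by at least 3.62 ± 0.12 when dormant (adjusted p = 1.74e-23, limma) and at least 2.92 ± 0.11 when activated. CD8bm1 was dim for it in both states (6.03 and 6.49), as it was for Pik3r5 when dormant. Pik3cb, the catalytic subunit p110 beta, was lower in the IL13+ clones, with differences of -1.54 ± 0.12 and -1.07 ± 0.12. The differences lay with sAg3 (5.68 and 6.55), whose dim levels make both lower bounds in size. The sAg1 arrays overlapped those of CD8bm1 in both states. Ocrl, a 5-phosphatase of inositol lipids, differed by -2.16 ± 0.10 and -1.76 ± 0.09 on average. Both were lower bounds in size through the dim sAg3 (5.36 and 5.70), sAg1 being at 8.72 and 8.82 against 9.20 and 9.02 in CD8bm1.

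Further genes called against CD8bm1 in the dormant state were Gab3 (1.91 ± 0.11), Phlpp1 (1.58 ± 0.11, dim on both sides), Ipmk, an inositol polyphosphate multikinase (-1.60 ± 0.06), and Itpk1 (-1.42 ± 0.11). Plekha1, which binds PI(3,4)P2, the product of SHIP1, was higher by at least 1.87 ± 0.10 through sAg1 (8.31), sAg3 (4.89) being as dim as CD8bm1 (4.73). After activation Phlpp1 (at least 1.70 ± 0.10), Prkd3, a protein kinase D (1.64 ± 0.08), and Dgkh, the diacylglycerol kinase eta (at least 1.38 ± 0.09), were higher. Pi4k2b, a phosphatidylinositol 4-kinase (-1.53 ± 0.09), and Plcb3, a phospholipase C beta (-1.05 ± 0.06), were lower. Each was also called in the dormant state, where at most 4 genes per direction are named. The dormant differences were 1.40 ± 0.09 for Prkd3, at least 1.54 ± 0.10 for Dgkh, -1.31 ± 0.10 for Pi4k2b and -1.085 ± 0.07 for Plcb3. With clone means in place of arrays as replicates, 0 pathway genes were called between phenotypes or against CD8bm1 (limma, 0 at an adjusted p under 0.05 of any size, and 9 to 12 of 118 at an unadjusted one), so these calls hold for these clones.

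The genes whose 10 group means followed each member most closely were named by Pearson's r among 7808 probe sets spanning at least 1 log2 unit. The group means share clones and states, so r is a description. They are means of deposited values, so the shift between dormant and activated arrays enters r. Inpp5d was closest to Rnpepl1 (0.951), Rgs18 (0.949) and Rny1 (0.945), Pik3ip1 to Klf10 (0.963), G2e3 (0.936) and Ttc38 (0.934), and Pik3r5 to Ascc2 (0.967), Hif1a (0.955) and Alkbh3 (0.952). Rasgrp1 was closest to Elf4 (0.977), Zbtb25 (0.972) and Rragb (0.963), and Rasgrp2 to Zfp874a (0.986), Tspo (0.985) and Prxl2c (0.984). Dgka was closest to Ifngr1 (0.972), Wdr45 (0.964) and Klhl24 (0.958), and Dgkz to Etv6 (0.940), Rnf19a (0.930) and Tnfaip3 (0.925). Pik3cd was closest to Rab11fip4 (0.970), Gbp9 (0.958) and Slc28a2 (0.957), and Pik3r1 to Eipr1 (0.928), Cpa5 (0.928) and Tmem184b (0.921).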

How the data were processed

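Gene expression was measured on 38 Affymetrix arrays, 1 per RNA sample, from 100 ng of total RNA labelled with the WT Plus kit, per the labels' protocols. The log2 values deposited by the authors summarise probe sets and run from 1.81 to 14.76. Partek and RMA are named, with no version, in the submitters' processing notes; their settings are not given here. RMA-type summaries compress differences between dim probe sets. Of 35556 rows, 23410 carry a gene name in the platform annotation (21789 with 1 symbol) and were tested; 21698 matched the GRCm38.p6 gene table, used for names and chromosomes. A gene with several probe sets is represented by the brightest.

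Groups follow the labels. Each probe set was fitted with limma 3.58.1 (R 4.3.3), 1 mean per group, all arrays sharing the spread, variances moderated with a mean trend, and clones weighted equally. Calls needed a two-sided Benjamini-Hochberg adjusted p under 0.05, a log2 difference of at least 1 and a condition on the clones. In activation each of the 5 clones had to move the same way; between phenotypes the clone means, and for the difference in activation the clones' activation differences, had to lie apart. Errors are SE of contrasts. For each comparison, all 9 members and up to 4 called pathway genes per direction are named, with 3 genes of most similar pattern per member. The members and lists were chosen with earlier results of these data known. Promoter windows are RefSeq's. Alternatives covered scaling, a dim filter, the fold minimum, the variance model, array weights, the samples fitted, the clone condition, the unit of replication, the replicate block and arrays left out. The procedure was tested on simulated data. Of 128 listed pathway genes, 10 were not analysed here. Arrays carry no read depth; their number limits the precision.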

Additional observations from a re-analysis of the deposited data

Results flagged for a closer look

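Inpp5d moved in opposite directions on activation: its deposited values differed by 1.01 in sAg3, with every activated array above every dormant one, and by -0.365 in 8uvmo-2 and -0.775 in 8uvmo-3, with every activated array below every dormant one. The difference between these single clones was not tested. For Dgkz, replicate 4 of activated 8uvmo-2 read 9.25, apart from the other replicates at 9.03 to 9.06. It was the 1 array set apart among the 72 combinations of a gene with a group of 4 arrays, and chance sets apart about 1 in 20.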

How the results depend on the processing

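Without a minimum difference the pathway counts were 33 higher and 27 lower in activation, 43 and 42 for IL13+ against IL13- (dormant, activated), 68 and 61 against CD8bm1 and 24 for the difference in activation. In activation, centring gave 1 higher and 14 lower, and both quantile normalization and a filter at level 7 gave 1 higher; over all probe sets the split of 1067 higher and 383 lower became 248 and 1301 with centring and 430 and 620 with quantile normalization. Without the clone condition 9 genes were called between activated IL13+ and IL13- clones. With clone means as replicates the 4 comparisons of IL13+ clones gave 0 calls each (the cause was not tested), while activation had 7 calls in all. The difference in activation had 2 calls without dormant 8uvmo-2 replicates 1 and 3.

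Of the members' differences, Pik3r1 in activation reversed to -0.139 with centring, and Dgkz between activated IL13+ and IL13- clones to 0.05 with its further probe set, and Inpp5d in the difference in activation fell under the minimum with quantile normalization (0.80); the cause was not tested. With 1 array left out, counts were 2 higher and 4 to 5 lower in activation, 9 to 10 and 5 to 6 for IL13+ against IL13- (dormant, activated), 18 to 21 and 11 to 12 against CD8bm1, and 0 to 1 for the difference in activation (1 without activated 8uvmo-2 replicate 3 or activated 8uvmo-3 replicate 2). The replicate numbers state no pairing: deviations of same-numbered dormant and activated arrays correlated at -0.236 to 0.268 over 18 pairs, 7 of them above 0.1. With the replicate number as a block the counts were 2 and 5 in activation, then 9, 5, 19, 12 and 0. Dim levels limit Inpp5d in sAg1, Pik3r5 in CD8bm1 and activated Rasgrp2.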
